A study of Mus musculus with 20 samples.

Results

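Promoters marked by H3K4me3 were compared by whether they also held the transcription factor ISL1, in embryonic mouse ganglia of the inner ear. A gene was a member if H3K4me3 replicate 2 had a peak within 1 kb of either annotated end of the gene, which held for 8658 of 21887 protein-coding genes (39.6%). A member counted as having ISL1 when at least 2 of the 4 ISL1 libraries had a peak summit, the position of highest signal, inside the same H3K4me3 peak. By that rule 1553 members (17.9%, 95% Wilson interval 17.1 to 18.8) had ISL1 and 7105 did not. Intervals here and below cover counting error only. The 8658 genes drew on 8092 H3K4me3 peaks, of which 1279 had ISL1 and 6813 did not. A single peak served 2 or more genes in 1400 cases, so the genes are not independent of one another.

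The study applied CUT&Tag, in which an antibody tethers a transposase to chromatin and the cut DNA is sequenced, to tissue labelled CVG (the usual abbreviation of the cochleovestibular ganglion) from C57BL/6J embryos at stage E11.5. Its title asks how ISL1 and POU4F1 act together in inner ear sensory neurons. All groups share strain, tissue and age, and differ in the antibody: ISL1_26 (1 library), ISL1_70 (3 libraries), POU4F1 (2), H3K4me3 (2), H3K27ac (3) and H3K27me3 (3). Both ISL1 groups carry ISL1 as the antibody label; the meaning of 26 and 70 is not given, and neither is whether replicates are separate embryos or dissections, so the spread between libraries may be technical. The 6 IgG libraries were not analysed here. No knockout or treatment is among the samples, so nothing here measures what ISL1 does at a promoter.

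H3K4me3 is a histone modification laid down around the starts of genes that are transcribed or ready for transcription, mostly at promoters rich in CpG dinucleotides. ISL1 is a LIM homeodomain factor that, together with LDB cofactors and other homeodomain proteins, specifies sensory neurons, motor neurons and other cell types, and its well-studied binding sites are often distal enhancers. H3K27ac marks active promoters and enhancers, and H3K27me3 marks chromatin silenced by Polycomb.

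The deposited lists give positions, fold enrichments and significance for each peak but no reads, so sequencing depth is unknown. The ISL1 lists ran to 95719 peaks in ISL1_26 replicate 1 and to 80293, 24573 and 41668 in ISL1_70 replicates 1 to 3, and the H3K4me3 replicate 2 list held 22425. H3K4me3 replicate 2 lay at 32 of 34 cytosolic ribosomal protein genes and at 0 of 19 olfactory and vomeronasal receptor genes. Among the cell type markers it lay at 8 of 10 neuron genes (Tubb3, Elavl3, Stmn2, Isl1, Pou4f1, Neurod1, Nhlh1 and Dcx, but not Elavl4 or Gata3), 2 of 6 Schwann cell and neural crest genes (Sox10 and Erbb3), 2 of 7 otic epithelium genes (Pax2 and Hmx3), 1 of 6 mesenchyme genes (Pou3f4), 0 of 6 endothelium and blood genes and 0 of 4 muscle and liver genes. The Pax2 peak, of 394 bp, lay 81216 bp from the RefSeq start, near the other end of the gene, with H3K27ac in 0 libraries. The lists come from whole tissue: a peak present in few cells and a weak peak in many cells cannot be told apart, and an ISL1 and an H3K4me3 peak at the same place need not come from the same cells.

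H3K4me3 replicate 1 was kept apart because its list goes against its label. Its covered bases were compared with other lists by the Jaccard index, the shared length divided by the joint length. The index with H3K4me3 replicate 2 was 0.036, whereas H3K27me3 replicates 2 and 3 gave 0.742 and 0.496 and H3K27me3 replicate 1 gave 0.078. It lay at 22 of 22 Hox genes and at 1 of 34 ribosomal protein genes, whereas H3K4me3 replicate 2 lay at 5 and 32. Taken in place of replicate 2, it gave 4651 genes, of which 1328 had ISL1 (28.6%). Of these genes 1583 were also H3K4me3 replicate 2 genes, which is 34.0% of the replicate 1 genes and 18.3% of the replicate 2 genes. H3K4me3 values from here on rest on the single library of replicate 2, except where replicate 1 is named.

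Promoter sequences of 7 members are shown to let the summit positions be seen in the DNA itself. Ska2, Hnrnpl, Ttll7 and Hip1 had ISL1 in all 4 libraries. Nhlh2 is an inner ear neuron transcription factor with ISL1 in all 4 libraries, and Rpl5 and Ebf1 are genes with strong or wide H3K4me3 and ISL1 in no library. Each window runs from 250 bases before the RefSeq start to 50 bases into the gene (GRCm38.p6), 5′ to 3′ on the strand of the gene, and capitals mark 10 bases on each side of every ISL1 summit in the window. The windows are chr11:87109011-87109310 (plus strand) for Ska2, chr7:28810640-28810939 (plus) for Hnrnpl, chr3:146852117-146852416 (plus) for Ttll7, chr5:135545073-135545372 (minus) for Hip1, chr3:102009895-102010194 (plus) for Nhlh2, chr5:107900278-107900577 (plus) for Rpl5 and chr11:44619978-44620277 (plus) for Ebf1.
Ska2: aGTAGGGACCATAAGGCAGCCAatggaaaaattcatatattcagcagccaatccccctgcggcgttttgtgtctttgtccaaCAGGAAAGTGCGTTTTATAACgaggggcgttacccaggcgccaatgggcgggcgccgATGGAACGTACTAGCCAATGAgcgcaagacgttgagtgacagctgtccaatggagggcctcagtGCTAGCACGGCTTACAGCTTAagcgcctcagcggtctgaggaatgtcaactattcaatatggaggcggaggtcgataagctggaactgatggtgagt
Hnrnpl: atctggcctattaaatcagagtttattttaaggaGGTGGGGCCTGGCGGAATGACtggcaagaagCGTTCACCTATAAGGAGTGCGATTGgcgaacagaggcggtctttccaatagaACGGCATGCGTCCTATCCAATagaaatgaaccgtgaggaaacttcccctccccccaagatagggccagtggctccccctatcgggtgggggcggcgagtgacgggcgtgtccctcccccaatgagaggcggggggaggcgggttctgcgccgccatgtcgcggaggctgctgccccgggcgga
Ttll7: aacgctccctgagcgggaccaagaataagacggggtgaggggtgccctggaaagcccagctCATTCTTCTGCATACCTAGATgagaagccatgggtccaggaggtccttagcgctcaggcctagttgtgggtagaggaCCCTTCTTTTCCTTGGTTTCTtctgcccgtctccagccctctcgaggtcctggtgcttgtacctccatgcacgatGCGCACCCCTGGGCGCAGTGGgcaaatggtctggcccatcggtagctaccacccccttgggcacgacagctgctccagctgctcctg
Hip1: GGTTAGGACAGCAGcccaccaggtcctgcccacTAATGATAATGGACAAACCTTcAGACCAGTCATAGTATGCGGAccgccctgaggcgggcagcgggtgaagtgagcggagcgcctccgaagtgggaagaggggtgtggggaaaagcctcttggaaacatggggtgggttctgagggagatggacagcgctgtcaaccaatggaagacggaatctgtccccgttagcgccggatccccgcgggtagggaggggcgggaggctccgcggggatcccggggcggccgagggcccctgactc
Nhlh2: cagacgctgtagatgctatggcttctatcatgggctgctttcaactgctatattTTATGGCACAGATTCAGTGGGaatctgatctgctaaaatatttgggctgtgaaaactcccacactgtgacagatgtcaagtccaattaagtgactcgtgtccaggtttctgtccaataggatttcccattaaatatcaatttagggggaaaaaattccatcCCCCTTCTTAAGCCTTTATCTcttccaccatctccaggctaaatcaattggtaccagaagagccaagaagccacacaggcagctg
Rpl5: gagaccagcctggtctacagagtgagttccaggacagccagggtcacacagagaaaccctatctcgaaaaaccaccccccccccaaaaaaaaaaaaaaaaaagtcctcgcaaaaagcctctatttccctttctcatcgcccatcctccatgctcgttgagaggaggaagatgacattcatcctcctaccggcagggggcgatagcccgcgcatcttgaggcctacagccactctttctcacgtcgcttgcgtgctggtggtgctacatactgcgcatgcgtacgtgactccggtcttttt
Ebf1: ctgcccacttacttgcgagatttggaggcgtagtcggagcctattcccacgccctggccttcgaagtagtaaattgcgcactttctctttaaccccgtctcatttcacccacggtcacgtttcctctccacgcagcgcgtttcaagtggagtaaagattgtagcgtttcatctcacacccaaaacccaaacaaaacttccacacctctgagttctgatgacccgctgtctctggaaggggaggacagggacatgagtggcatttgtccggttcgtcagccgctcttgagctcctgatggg

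In the Ska2 window the 4 summits were spread over the region upstream of the start, at -239 (ISL1_70 replicate 1), -158 (ISL1_70 replicate 3), -101 (ISL1_26 replicate 1) and -37 (ISL1_70 replicate 2) bp. The Hnrnpl window also held a summit of each library, at -206, -175, -171 and -123 bp, so that the capitals of ISL1_26 replicate 1 and ISL1_70 replicate 3 run together. Ttll7 had summits of 3 libraries at -179, -102 and -27 bp, and Hip1 of 3 libraries at -247, -207 and -185 bp. Nhlh2 had summits of 2 libraries, at -186 and -25 bp. The Rpl5 and Ebf1 windows held none. The windows differ in base composition: Hnrnpl held 21 CpG dinucleotides and Ska2 17, as did Ebf1, whereas Nhlh2 held 2.

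Promoter windows were matched for 1170 of the 1553 genes with ISL1 and 5202 of the 7105 without. Both groups were CpG-rich and close to each other: the median observed-to-expected CpG ratio was 0.816 with ISL1 and 0.825 without, against 0.311 for 10513 promoters without H3K4me3. Median GC content was 65% with ISL1, 63% without, and 51.3% without H3K4me3. The letters TAATTA, the core of many homeodomain sites, occurred on either strand in 1.37% of promoters with ISL1 (95% Wilson interval 0.843 to 2.21), 1.88% of those without (1.55 to 2.29), 6.49% of promoters without H3K4me3 and 4.71% of all promoters. TAATGG occurred in 4.10%, 3.90%, 8.11% and 6.54% of the same groups, and CTAATG in 3.85%, 4.11%, 8.05% and 6.54%. These 2 motifs overlap wherever CTAATGG occurs. GGGCGG, the core of the GC box bound by SP factors, occurred in 76.7% of promoters with ISL1 (74.2 to 79.0), 70.1% without (68.8 to 71.3), 31.8% of promoters without H3K4me3 and 46.7% of all. Among the windows printed, Hip1 holds TAATGG and CTAATG, Nhlh2 holds TAATGG, and Ska2, Hnrnpl and Hip1 hold GGGCGG. A match is a description of the letters, not of a binding site. The group with ISL1 has summits anywhere in the H3K4me3 peak, so a promoter window need not hold one. The windows of Sp1, Smad1 and Zfp385a, with ISL1 in all 4 libraries, held 0 summits. The motif shares therefore do not describe the sequence at ISL1 summits.

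ISL1 summits were found more often at genes with H3K4me3 than at other genes in each of the 4 libraries. In ISL1_26 replicate 1, 40.6% of genes with H3K4me3 had an ISL1 summit within 1 kb of an end, against 20.4% of the 13229 genes without. The corresponding shares in ISL1_70 replicates 1 to 3 were 46.1% against 17.8%, 13.0% against 6.35%, and 16.9% against 8.51%. The mean difference was 15.9 ± 10.2 percentage points (SD, n = 4), higher in 4 of 4 libraries, with an exact two-sided permutation p of 0.13, the smallest that 4 libraries can give. Counted over libraries, 33.5% of genes with H3K4me3 and 10.8% of genes without had ISL1 summits of 2 or more libraries within 1 kb of an end, a looser criterion than a shared H3K4me3 peak.

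Measured per base, ISL1 summits were denser inside the gene-end H3K4me3 peaks than in the 2 kb on each side of them. The ratio of densities was 2.99 in ISL1_26 replicate 1 and 4.79, 2.94 and 2.83 in ISL1_70 replicates 1 to 3. POU4F1, a POU homeodomain factor measured in the same tissue, gave ratios of 2.95 and 3.22 at the same peaks. The means were 3.39 ± 0.938 (SD, n = 4) for ISL1 and 3.09 ± 0.193 (SD, n = 2) for POU4F1, which differed by less than the spread between libraries (exact two-sided permutation p = 0.933). With 4 and 2 libraries this test has few arrangements and little power. The share of each list that fell inside these peaks was small, from 1.67% to 3.32% over the ISL1 libraries (mean 2.29% ± 0.724, n = 4) and 1.33% to 1.94% for POU4F1 (1.64% ± 0.432, n = 2; exact permutation p = 0.333). Inside the 14333 H3K4me3 peaks away from gene ends, ISL1 was rarer: 5.80%, 5.81%, 1.72% and 2.26% of them held a summit of the 4 libraries, against 21.8%, 30.6%, 6.57% and 8.37% of gene-end peaks. These shares are per peak, and the peaks away from gene ends were narrower (median 500 bp against 796.5 bp). Per Mb of peak, the 4 libraries had 108, 109, 31.7 and 41.5 summits away from gene ends, against 229, 328, 67.4 and 85.5 in gene-end peaks.

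The number of genes with ISL1 depended on how many libraries had to share a promoter. No library reached 4184 genes, exactly 1 reached 2921, exactly 2 reached 1203, 3 reached 289 and all 4 reached 61, so that 51.7% of H3K4me3 genes had a summit of at least 1 library. The genes just outside the rule (1 library) thus outnumbered those just inside it (2 libraries) by 2921 to 1203. The pair of longest lists, ISL1_26 replicate 1 with ISL1_70 replicate 1 and no other, accounted for 576 of the 1279 peaks with ISL1 (45.0%). Without ISL1_26 replicate 1, 663 genes met the rule, and without ISL1_70 replicate 1, 569 did.

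Genes with ISL1 had wider H3K4me3 peaks. The median width was 1461 bp (quartiles 1020 and 2033) for peaks with ISL1 and 699 bp (517 and 1127) for those without, a ratio of 2.09. Median width was larger with each added ISL1 library, from 621 bp at 0 libraries through 958, 1365.5 and 1667 to 2112.5 bp at 4. The authors' fold enrichment for H3K4me3 followed the same order, with medians of 16.6, 30.7, 42.3, 53.9 and 56.7. H3K4me3 peaks away from gene ends were narrower, with a median of 500 bp.

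A wider peak covers more bases in which a summit can fall, and the share of peaks with ISL1 was higher in wider peaks. Gene-end peaks were split into 4 width classes of nearly equal number. In the narrowest class (335 to 545 bp) 3.50% had ISL1 in 2 or more libraries, and in the next classes 5.85% (546 to 796 bp), 16.5% (797 to 1286 bp) and 37.4% (1287 to 6544 bp). The number of ISL1 summits per Mb of H3K4me3 peak changed far less across these classes. ISL1_26 replicate 1 had 231, 192, 249 and 230 summits per Mb from narrow to wide. ISL1_70 replicate 1 had 260, 294, 350 and 344, replicate 2 had 75.9, 64.0, 57.0 and 72.2, and replicate 3 had 77.1, 80.01, 78.3 and 93.1. Within a fixed window of 250 bp on each side of the H3K4me3 summit, the shares were 4.19%, 3.87%, 5.78% and 6.13%, and the ratio of median widths between peaks with and without ISL1 came down from 2.09 to 1.22.

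**Figure D1:**
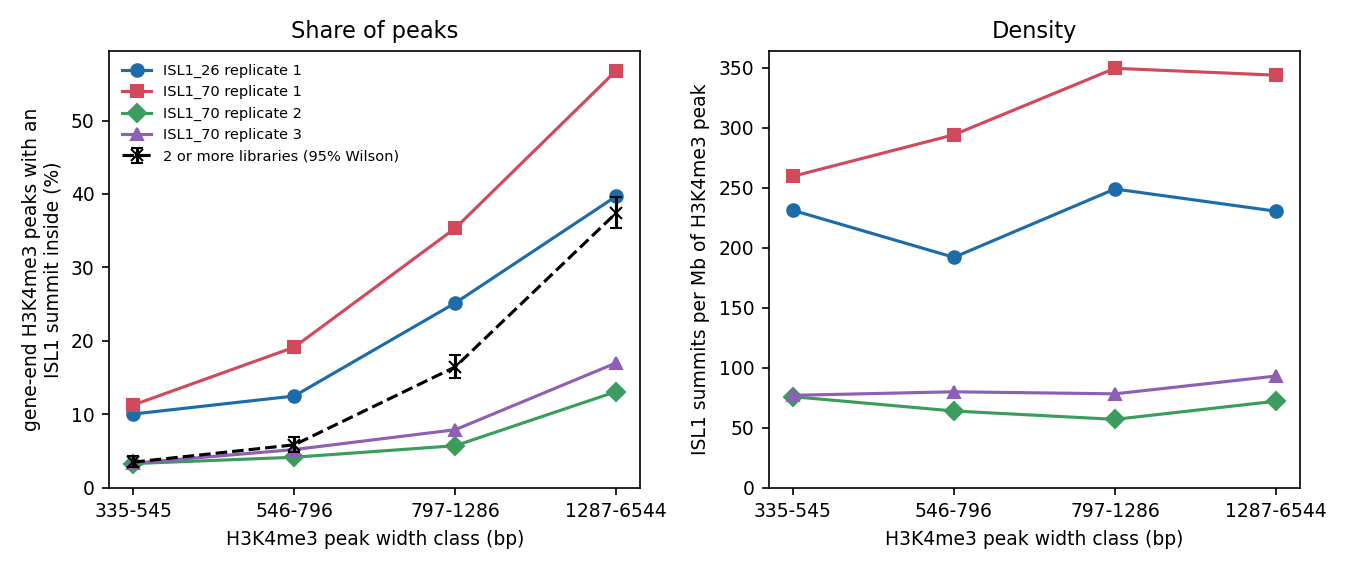
Left, the share of gene-end H3K4me3 peaks that hold an ISL1 summit (%) by H3K4me3 peak width class (bp), for each ISL1 library (solid lines) and for 2 or more libraries (dashed, with 95% Wilson intervals). Right, ISL1 summits per Mb of H3K4me3 peak in the same classes. The share goes from 3.50% to 37.4% with width for 2 or more libraries, while the density of each library stays within a narrower range, such as 192 to 249 per Mb in ISL1_26 replicate 1.

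Inside the peak, ISL1 summits lay only slightly closer to the H3K4me3 summit than positions spread evenly over the same peak would. Among peaks with ISL1, the median distance was 350 bp in ISL1_26 replicate 1 and 318, 344 and 345 bp in ISL1_70 replicates 1 to 3, a mean of 339 ± 14.4 bp (SD, n = 4). An even spread would give 372, 382, 369 and 366 bp, so the ratios were 0.941, 0.832, 0.932 and 0.943. Only 33.9% ± 1.60 (SD, n = 4) of the summits lay within 200 bp of the H3K4me3 summit. ISL1_70 replicate 1 had the largest difference with distance, from 406 summits per Mb in the innermost 100 bp to 235 per Mb at 1000 to 1500 bp. ISL1_70 replicate 3 was nearly flat, at 85.3 and 89.7 per Mb over the same bins.

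ISL1 summits of different libraries often differed in position within a shared H3K4me3 peak. Where 2 libraries had a summit in the same H3K4me3 peak, the median distance between the nearest summits was 212 to 275 bp over the 6 pairs of libraries, and 22.8% to 26.8% of these peaks had summits within 100 bp of each other. Over the 50 peaks with all 4 libraries, the best summits spanned a median of 845.5 bp, and in 4 peaks they lay within 200 bp. For pairs of libraries, the share of peaks with nearest summits within 200 bp was 40.7% to 49.5%. Pairs of libraries thus had nearby summits in some peaks and distant ones in others. No even-spread value was computed for distances between libraries.

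**Figure D2:**
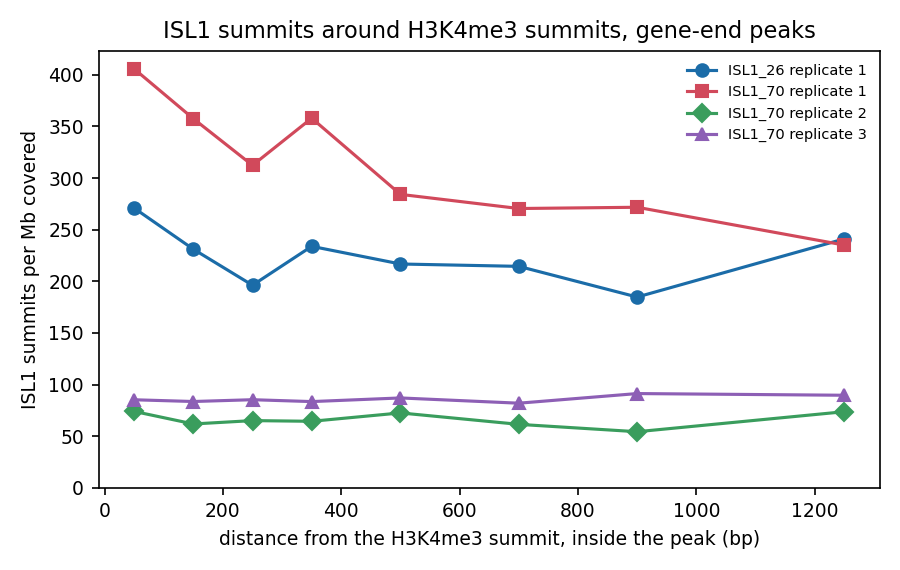
ISL1 summits per Mb of gene-end H3K4me3 peak (vertical axis) against the distance from the H3K4me3 summit (bp), with 1 line per library. ISL1_70 replicate 1 declines from 406 to 235 per Mb, and ISL1_70 replicate 3 stays between 82.0 and 91.3 per Mb.

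Relative to the gene start, ISL1 and H3K4me3 were arranged differently. Over 8500 starts with H3K4me3 and a known strand, the H3K4me3 summit lay at a median of 243 bp into the gene and 26.1% of summits within 1 kb lay upstream. ISL1 summits had medians of -6 bp in ISL1_26 replicate 1 and 122, -9 and -73.5 bp in ISL1_70 replicates 1 to 3, with 50.5%, 41.7%, 50.4% and 54.4% upstream (mean 49.2% ± 5.35, SD, n = 4). Each ISL1 library had a larger upstream share than H3K4me3 replicate 2. H3K27ac summits had medians of 253, 99 and 101.5 bp, and POU4F1 summits of 25 and 56 bp with 48.8% and 47.2% upstream. With 1 usable H3K4me3 library there is no test of this difference.

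**Figure D3:**
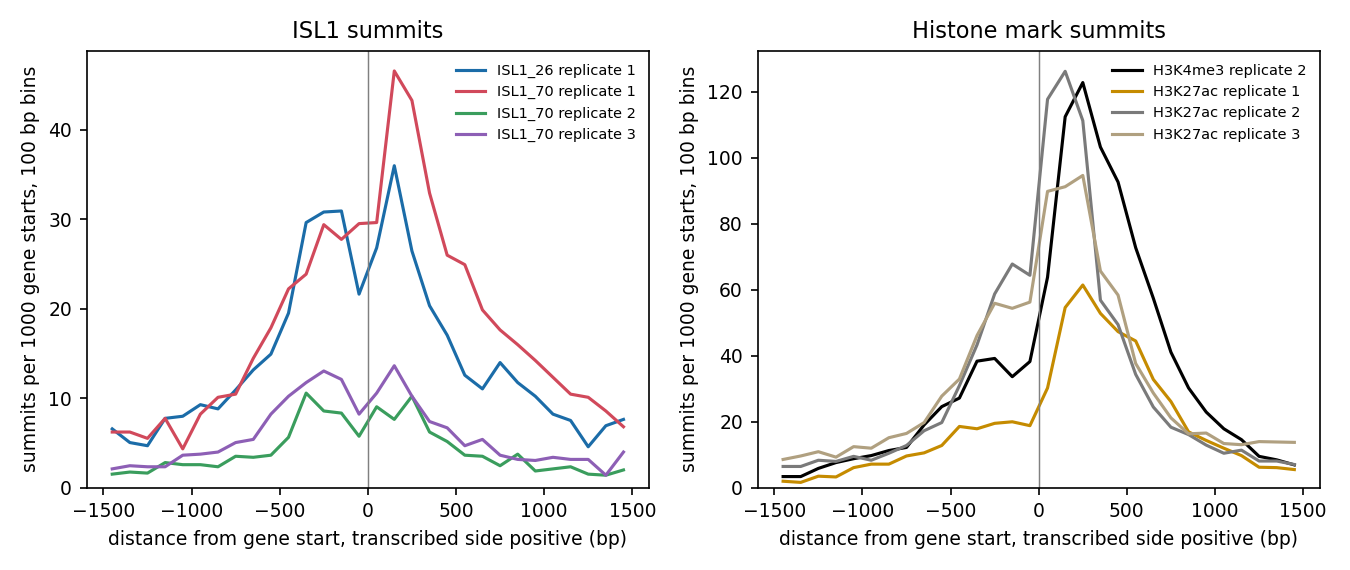
Summits per 1000 gene starts in bins of 100 bp (vertical axis) against distance from the start (bp, transcribed side positive), for starts with H3K4me3. Left, the 4 ISL1 libraries, which have summits on both sides of the start; right, H3K4me3 replicate 2 and the 3 H3K27ac libraries, whose summits lie mostly on the transcribed side, with 26.1% of H3K4me3 summits upstream.

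The rule counts either end of a gene, and most members qualified by their start. Of 6426 genes of known strand with H3K4me3 at their own start, 18.4% had ISL1 (95% Wilson interval 17.5 to 19.4). Of 553 genes with H3K4me3 only near their other end, 12.1% did (9.65 to 15.1). These fall into 188 genes whose other end lies at the start of another gene, of which 20.2% had ISL1, and 365 whose peak lies at no annotated start, of which 7.95% did (5.59 to 11.2).

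Peaks with ISL1 carried H3K27ac, a mark the rule did not use, more often than those without in each of 3 libraries. The shares were 70.8% against 41.3% in H3K27ac replicate 1, 95% against 77.9% in replicate 2 and 94.0% against 73.2% in replicate 3. The mean difference was 22.4 ± 6.39 percentage points (SD, n = 3), with an exact two-sided permutation p of 0.25, the smallest possible. In the narrowest width class of H3K4me3 peaks the differences were 10.2, 15.9 and 24.5 percentage points. In the widest class they were 8.61, 1.89 and 2.70, where H3K27ac replicates 2 and 3 marked 94.4% to 97.6% of the peaks of both groups. POU4F1 summits were also more frequent where ISL1 was, at 15.6% against 6.59% in POU4F1 replicate 1 and 10.1% against 3.70% in replicate 2 (exact permutation p = 0.5, the smallest that 2 libraries allow). In the widest class the shares were 18.6% against 13.5% and 11.9% against 7.11%, and in the narrowest class 9.86% against 3.47% and, in the other direction, 1.41% against 1.94%.

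H3K27me3 gave no common direction. Peaks with ISL1 overlapped it in 58.6% of cases against 34.2% in H3K27me3 replicate 1, but in 13.3% against 15.0% in replicate 2 and 15.2% against 17.7% in replicate 3. The mean difference of 6.75 ± 15.4 percentage points (SD, n = 3) was within the spread between libraries (exact permutation p = 1), and without replicate 1 it was -2.11. Replicate 1 is also the H3K27me3 list with the lowest median −log10 q, 1.09, against 10.8 and 13.6 in replicates 2 and 3. Its difference was smaller within each width class of H3K4me3 peaks, at 4.95, 0.0375, 9.45 and 11.6 percentage points from narrow to wide. Replicates 2 and 3 each had differences of both signs over these classes. H3K4me3 replicate 1, whose list resembles H3K27me3 replicates 2 and 3, overlapped 14.7% of peaks with ISL1 and 16.4% of those without.

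**Figure D4:**
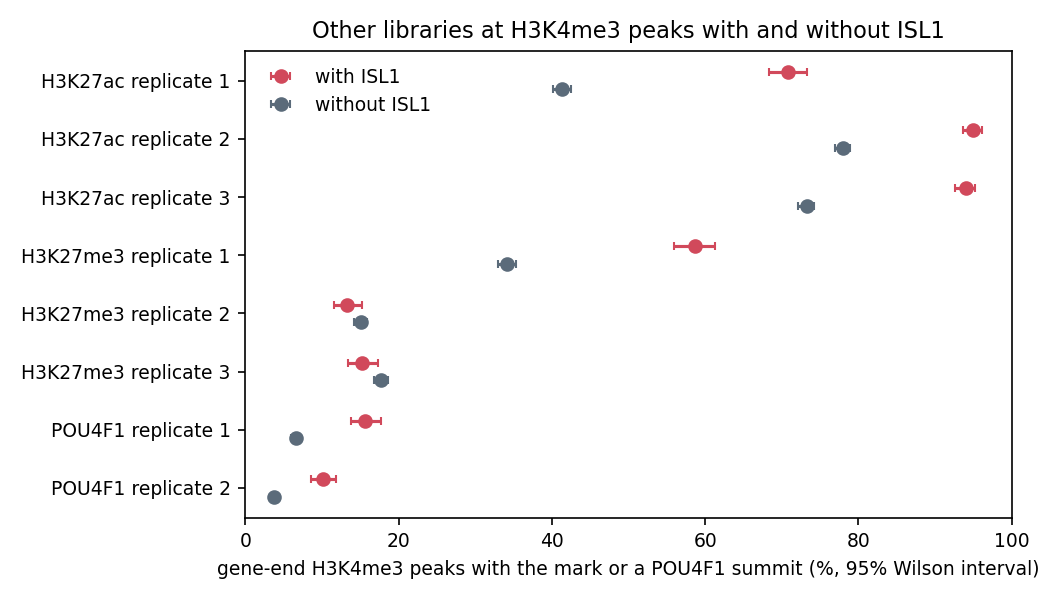
Share of gene-end H3K4me3 peaks (%, with 95% Wilson intervals) that overlap a peak of each histone mark library or hold a POU4F1 summit, for peaks with ISL1 (red) and without (grey). H3K27ac and POU4F1 are higher with ISL1 in every library, and H3K27me3 is higher in replicate 1 only (58.6% against 34.2%).

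The 2 factors of the study had H3K4me3 at their own genes but differed in ISL1. Isl1 (chr13:116298270-116309688, mm10) had a wide H3K4me3 peak of 3952 bp, with the authors' fold enrichment at 114, and an ISL1 summit in ISL1_70 replicate 3 only. That ISL1 peak ranked low in its list, at percentile 89.7, where 0 is the most significant peak of a list by −log10 q and 100 the least. Pou4f1 (chr14:104461675-104468118) had a peak of 1122 bp with summits of 3 libraries, at 349 bp (ISL1_26 replicate 1), 549 bp and 548 bp (ISL1_70 replicates 1 and 2) from the H3K4me3 summit. Positive distances point to higher coordinates. The percentiles of these Pou4f1 peaks were 29.6, 87.1 and 98.9, so ISL1_26 replicate 1 ranked it highest and ISL1_70 replicate 2 near the end of its list. Both genes had H3K27ac in 3 libraries and H3K27me3 in 2.

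The 61 genes with ISL1 in all 4 libraries lay at 50 H3K4me3 peaks of 482 to 5399 bp. H3K27ac from all 3 libraries marked 52 of them and H3K27me3 from at least 2 libraries marked 10. POU4F1 was present at 19, in 1 library each (12 in replicate 1, 7 in replicate 2). By peak, 88%, 96% and 96% of the 50 overlapped H3K27ac replicates 1 to 3, against 70.8%, 95% and 94.0% of all 1279 peaks with ISL1. H3K27me3 replicates 1 to 3 overlapped 72%, 16% and 18%, against 58.6%, 13.3% and 15.2%. POU4F1 replicates 1 and 2 had summits in 22% and 10%, against 15.6% and 10.1%. The 50 peaks were also wider, with a median of 2112.5 bp against 1461 bp. Among peaks with ISL1 in the widest class, H3K27ac replicates 1 to 3 overlapped 85.1%, 97.6% and 97.1%. In the same class H3K27me3 replicates 1 to 3 overlapped 70.3%, 13.1% and 15.7%, and POU4F1 replicates 1 and 2 had summits in 18.6% and 11.9%. With POU4F1 shares this low, the lack of genes with both POU4F1 replicates is a description only. The 12 that ranked best by mean ISL1 percentile over the 4 lists were chosen for that rank, so their values are a description.

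Ttll7, a tubulin polyglutamylase that modifies neuronal microtubules, ranked first (chr3:146852184-146984009). Its best ISL1 peaks had percentiles of 0.0684 in ISL1_26 replicate 1 and 0.0585, 0.149 and 0.130 in ISL1_70 replicates 1 to 3, all close to the top of their lists. These summits lay 1207, 1212, 1353 and 1475 bp from the H3K4me3 summit, inside the gene and downstream of the promoter window printed above, whose summits ranked lower. Syt13, a member of the synaptotagmin family of membrane trafficking proteins, had percentiles of 1.37, 0.711, 4.22 and 1.60 and distances of 603, 929, 816 and 753 bp. The promoter shared by Ska2, a subunit of the spindle and kinetochore-associated complex, and Prr11, which is divergently transcribed from it, had a very strong H3K4me3 peak, with a fold of 259. Its ISL1 summits lay at -578, -716, -514 and -635 bp, a span of 202 bp, with percentiles of 7.21, 12.8, 1.57 and 4.36.

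Sp1, the zinc finger factor that binds GC boxes, had a weaker H3K4me3 peak (fold 10.8) and ISL1 percentiles of 4.22, 1.36, 4.40 and 17.9. Hip1, a clathrin adaptor protein that interacts with huntingtin, had summits that nearly coincided, spanning 89 bp at 582 to 671 bp from the H3K4me3 summit. Hip1 ranked at 0.661 in ISL1_26 replicate 1 and at 34.7, 0.480 and 0.0312 in ISL1_70 replicates 1 to 3, so ISL1_70 replicate 1 stood apart from the other libraries there. Hnrnpl, a splicing regulator, had 3 best summits at 1687 to 1722 bp, whereas the best summit of ISL1_70 replicate 1 lay at 69 bp. A further summit of ISL1_70 replicate 1 lay at -123 bp from the start. It was near the best summits of the other libraries, at -206, -175 and -171 bp from the start.

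Ppp1r1c, an inhibitor subunit of protein phosphatase 1, had its ISL1 summits close to the H3K4me3 summit, at -13, -153, -21 and -22 bp. Its promoter window was poor in CpG, at an observed-to-expected ratio of 0.303. Smad1, which transmits BMP signals, had percentiles of 0.279 and 0.208 in the longer lists and 20.0 and 28.4 in ISL1_70 replicates 2 and 3. Zfp385a, Leprot and Dazap1 completed the 12, with spans of 3057, 202 and 372 bp between the best summits of the libraries.

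At the other end of the range, the 8 genes with the widest H3K4me3 and no ISL1 peak of any library sat on peaks of 2765 to 4165 bp, inside the range of the 4-library peaks. Ebf1, a transcription factor of the EBF family that acts in neuron differentiation, had the widest at 4165 bp with a fold of 106. It was followed by Mllt6, a PHD finger protein (3618 bp), C1ql3, a secreted C1q-like synaptic protein (3407 bp), and Tacc3, a mitotic spindle protein (2972 bp). Lmf2 and Ncaph2 shared a peak of 2801 bp, and Septin1 and Zfp553 one of 2765 bp. All of these peaks had H3K27ac in 3 libraries. Ebf1 and C1ql3 also had H3K27me3 in 3. This was not particular to genes without ISL1, since Nhlh2, Irx2 and Isl2, which had ISL1, also had H3K27me3 in 3 libraries.

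Genes were then grouped by function with 23 lists, of which 562 of 564 genes matched the annotation. Across 6 neuron lists, 35 of 102 genes with H3K4me3 had ISL1 (34.3%, 95% Wilson interval 25.8 to 43.9). Across the lists of general cellular machinery it was 31 of 186 (16.7%, 12 to 22.7), near the 17.9% of all H3K4me3 genes. The neuron share was higher in each library, at 40.2% against 22.0% in ISL1_26 replicate 1 and 46.1% against 38.7%, 18.6% against 6.99% and 19.6% against 4.84% in ISL1_70 replicates 1 to 3, a mean difference of 13.0 ± 4.59 percentage points (SD, n = 4). Over all H3K4me3 genes the library shares were 24.6%, 33.8%, 7.30% and 9.49%. The lists differ in width too, with median peaks of 1374.5 bp for neuron genes and 1082 bp for general genes against 887.5 bp for all. Giving each gene the ISL1 share of its width class yields 26.01 neuron genes and 39.9 general genes, against the 35 and 31 observed. Within the widest class, 28 of 55 neuron genes (50.9%) and 21 of 72 general genes (29.2%) had ISL1, against 38.2% of all.

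**Figure D5:**
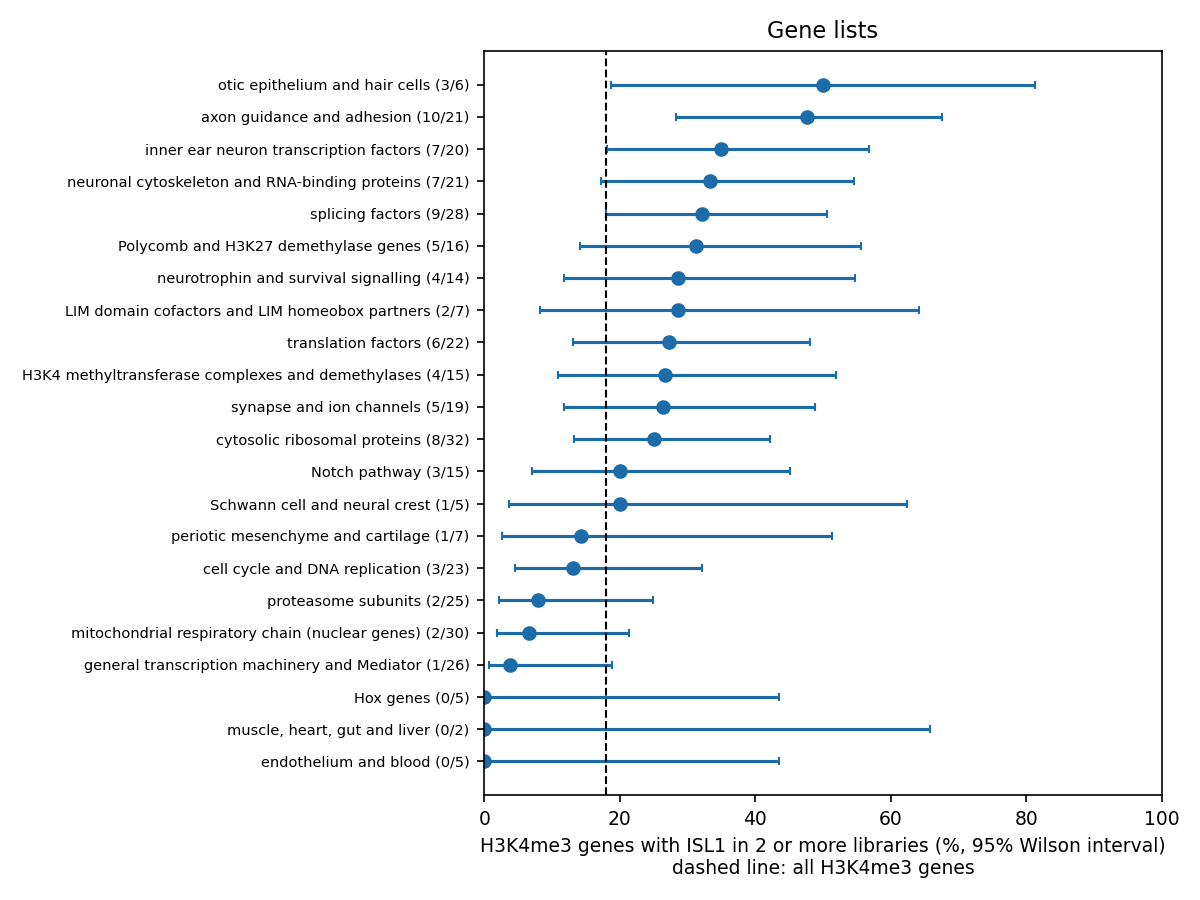
Share of H3K4me3 genes with ISL1 in 2 or more libraries (%, points, with 95% Wilson intervals) for each list that has H3K4me3 genes, with the number over the total in parentheses. The dashed line marks 17.9%, the share of all H3K4me3 genes; axon guidance genes sit at 47.6% and general transcription machinery at 3.85%, and most intervals are wide.

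Axon guidance and adhesion genes held the largest count among the neuron lists, with ISL1 at 10 of 21 H3K4me3 genes against 5.65 by width class. The 10 were the netrin receptor Unc5c, the semaphorin receptors Nrp2, Plxna2 and Plxna3, the ephrins Efna5 and Efnb2, the ephrin receptor Epha7, and the adhesion molecules Nrcam, Ncam1 and Nfasc. Efna5 had all 4 libraries in a 4602 bp peak, with percentiles of 5.41, 1.21, 55.8 and 78.6, so its peaks ranked nearer the top of the longer lists than of the lists of ISL1_70 replicates 2 and 3. Its best summits lay 2947, 2098, 530 and 400 bp from that of H3K4me3, a span of 2547 bp. Only the best summit of each library enters this span, so it does not tell whether the libraries also shared a site. Efnb2 had 3 libraries in a 4070 bp peak with percentiles of 7.75, 4.10 and 44.2. Robo3, Ntn1, Plxna1, Plxna4, Sema3f and Epha3 had H3K4me3 and no ISL1 summit of any library. Of these, Plxna4, a plexin, had a peak of 1119 bp and Ntn1, the ligand of Unc5c, one of 379 bp. The Ntn1 peak lay outside the gene, beyond its lower end, with H3K27ac in 0 libraries.

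Transcription factors of inner ear neurons had ISL1 at 7 of 20 H3K4me3 genes, against 5.93 by width class, among them Pou4f1, Nhlh2, Sox11, Shox2, Tlx3 and Irx2. Nhlh2, a basic helix-loop-helix factor, had all 4 libraries in a peak of 3514 bp, with percentiles of 22.9, 1.16, 9.47 and 47.0 and best summits at -1841, -1528, -1522 and -1680 bp. These 4 summits fell within 319 bp of one another. Irx2, of the Iroquois homeobox family, had 4 libraries in a peak of 5399 bp, where the summits spanned 2727 bp. Neurod1, which is needed for these neurons to form and survive, had a strong H3K4me3 peak of 2427 bp (fold 87.9) with no ISL1 summit inside it. A summit of ISL1_70 replicate 1 lay at -71 bp from the Neurod1 start, outside its H3K4me3 peaks. Insm1, Lmx1a and Ebf1 also had none.

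The LIM genes included Lmo4, a LIM-only protein that binds LDB cofactors, with ISL1 in all 4 libraries at percentiles of 8.60, 79.1, 63.8 and 3.93 within a 1689 bp peak. Isl2, the paralogue of Isl1, had 3 libraries in a peak of 6323 bp with summits that spanned 4636 bp. Ssbp3 and Rlim, which act on the LDB complex, had peaks of 1600 and 1360 bp and no ISL1. In all, 2 of 7 genes of this list had ISL1, against 1.66 by width class.

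Neurotrophin and survival genes had ISL1 at 4 of 14, against 3.29 by width class. Gfra1, the GDNF co-receptor, had a very weak H3K4me3 peak (fold 1.74) with ISL1 in 3 libraries. Its percentiles were 1.31 in ISL1_26 replicate 1 and 63.8 and 96.1 in ISL1_70 replicates 1 and 3, so a single library ranked it high. Erbb3, the neuregulin receptor, had percentiles of 52.1 and 29.9 in 2 libraries, and Ret and Fgfr1 were the other members with ISL1. The Erbb3 values come from a peak at chr10:128564810-128566579, beyond the lower end of the gene (chr10:128567523-128589635). It is not the widest H3K4me3 peak of Erbb3, which had 3033 bp, and it may belong to a neighbouring gene. Ntrk2, the BDNF receptor, had 1 library and Bdnf and Bax had none.

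For neuronal cytoskeleton and RNA-binding proteins the count was 7 of 21, against 6.62 by width class: Tubb3, Stmn1, Map1b, Nefm, Basp1, Nova1 and Kif5c. Nova1, a neuronal splicing regulator, had summits of ISL1_70 replicates 1 and 2 that lay 15 bp apart, at percentiles of 14.7 and 26. Basp1, a growth cone protein, had 3 libraries with summits over 2359 bp of a 4330 bp peak. Stmn2, Stmn3, Dcx, Map2, Nefh and Elavl2 had H3K4me3 and no ISL1, and Stmn3 combined a strong H3K4me3 peak (fold 132) of 1246 bp with none.

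Synapse and ion channel genes had ISL1 at 5 of 19, against 2.86 by width class, and the median width of their peaks was 813 bp. Scn9a, the sodium channel Nav1.7 of sensory neurons, had summits of ISL1_26 replicate 1 and ISL1_70 replicate 1 at 59 and 95 bp from the H3K4me3 summit, with percentiles of 1.37 and 8.73. Syp, the vesicle protein synaptophysin, had 3 libraries at percentiles of 73.5, 20.9 and 67.3. Syn1 and Vamp2, which act in vesicle release, were also among the members with ISL1. P2rx3, an ATP-gated channel of sensory neurons, had none.

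General machinery held lists with ISL1 above the share of all H3K4me3 genes and lists below it. Splicing factors had it at 9 of 28 and translation factors at 6 of 22, against 7.80 and 5.72 by width class, and cytosolic ribosomal proteins at 8 of 32, against 8.43. Hnrnpk, Snrpd3, Eef1a1, Rpl7 and Rps14 had 3 libraries each. Hnrnpk is an RNA-binding protein and Snrpd3 a core spliceosome component, Eef1a1 delivers aminoacyl-tRNA to the ribosome, and Rpl7 and Rps14 belong to its large and small subunits. Snrpd3 ranked at percentiles of 9.01, 2.17 and 33.9, and Hnrnpk at 65.6, 1.97 and 59.9, with ISL1_70 replicate 1 highest in both. Rpl8 and Rpl5 were among the strongest H3K4me3 genes of the list (fold 308 and 302, widths 1236 and 1114 bp) and had no ISL1 summit.

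General transcription machinery and Mediator had ISL1 at 1 of 26 genes, against 4.18 by width class. The exception was Gtf2f1, a TFIIF subunit, with summits of 2 libraries 117 bp apart at percentiles of 29.6 and 23.4. Med13, of the Mediator kinase module, had a 2299 bp peak with a fold of 119 and none. Nuclear genes of the respiratory chain had it at 2 of 30 (Ndufa4 and Atp5c1), against 5.35, proteasome subunits at 2 of 25 (Psmb2 and Psmd1), against 3.26, and cell cycle genes at 3 of 23 (Cdk4, E2f1 and Pcna), against 5.12. Pcna, the replication clamp, had 3 libraries in a peak of only 828 bp, with percentiles of 3.05, 4.42 and 8.68 and summits within 198 bp. E2f1, which drives entry into S phase, had 2 summits 6 bp apart at percentiles of 5.25 and 7.76.

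Chromatin regulators lay between these groups. H3K4 methyltransferase complexes and demethylases had ISL1 at 4 of 15 (Kmt2b, Kmt2c, Cxxc1 and Men1), against 4.36 by width class. Polycomb and H3K27 demethylase genes had it at 5 of 16 (Suz12, Rbbp4, Jarid2, Pcgf1 and Cbx2), against 3.16. Jarid2, a PRC2 cofactor, ranked at 2.73, 2.97 and 7.78 in 3 libraries, with summits at -1690, 860 and -1353 bp on both sides of the H3K4me3 summit. Kmt2b, which writes H3K4 methylation, ranked at 84.7, 57.3 and 1.79, highest in ISL1_70 replicate 2. In the Notch pathway 3 of 15 had ISL1 (Notch1, its ligand Jag1, and Hes6), against 3.39 by width class.

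Genes of other cell types had H3K4me3 less often than all genes. Of 93 matched genes in the 5 lists, 25 had H3K4me3 (26.9%, against 39.6% of all genes). Of these 25, 5 had ISL1 (20.0%, 95% Wilson interval 8.86 to 39.1), against 3.96 by width class. Otic epithelium and hair cell genes had it at 3 of 6 (Hmx3, Fbxo2 and Jag1), against 1.42 by width class. Schwann cell and neural crest genes had it at 1 of 5 (Erbb3, in the peak outside the gene), against 0.929. Periotic mesenchyme and cartilage genes had it at 1 of 7 (Foxc2), against 1.28. Endothelium and blood genes had it at 0 of 5, muscle, heart, gut and liver genes at 0 of 2, and Hox genes at 0 of 5. The counts by width class were 0.206, 0.131 and 0.267 in these lists. With so few genes the upper Wilson limits of these 3 lists are 43.4%, 65.8% and 43.4%, which include the 34.3% of the neuron lists.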

How the data were processed

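The authors deposited 1 peak list for each of 14 CUT&Tag libraries. MACS2 called the peaks of each library by itself, with a control, per the file headers (the peak names). FastQC, Bowtie2, SEACR and the build mm10 are named in the submitters' processing notes; for versions, roles, options and the control library, the sources used here give nothing. The deposited columns are a score, a fold enrichment (the ratio of signal at the summit to the caller's local background), the −log10 of the p-value and q-value, and where the summit lies. No peak has a −log10 q under 1 (q of 0.1). A deeper library gives more peaks, so counts were compared within libraries and not between them. The authors' fold enrichment was used only to describe peaks within a list.

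Peaks off the numbered and sex chromosomes were dropped. The rest were set against 21887 protein-coding genes of the RefSeq table for GRCm38.p6, which shares its main chromosomes with mm10. The promoter table gave the strand and start of 17492 genes, and sequences are credited to it (RefSeq, GRCm38.p6). The percentile of a peak is its rank by −log10 q within its list. The even-spread distance was computed from each peak's bounds. Tests were exact permutation tests over libraries (sign flips within, reassignment between targets), two-sided, since peaks and genes are not replicates, and p-values measure only the spread between these libraries. No test was made over gene lists. The steps were tested on simulated data with known answers before use. Python 3.11.15, numpy 2.4.6, pandas 2.3.3, scipy 1.17.1 and matplotlib 3.10.9 were used.

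The members and the 23 gene lists were chosen with earlier results of these data known. Named genes were Isl1 and Pou4f1, the 12 best-ranked genes with ISL1 in all 4 libraries, the 8 genes with the widest H3K4me3 peak and no ISL1, and up to 2 members per list with and 2 without ISL1; other list members are named only as those that make up a count, and a few genes are not reported here. Alternatives changed what counts as inside, the number of libraries, the window at gene ends, the threshold and length of the lists, and the libraries used.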

Additional observations from a re-analysis of the deposited data

Results flagged for a closer look

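ISL1_70 replicate 1 stood far from the other 3 ISL1 libraries in 2 of 12 measures screened. Its density of summits inside gene-end H3K4me3 peaks was 4.79 times that of the flanks, against 2.83 to 2.99 in the other 3. Its median distance to the H3K4me3 summit was 0.832 of that of an even spread, against 0.932 to 0.943. In both cases the gap to the nearest library took up so much of the range of the 4 libraries that chance alone gives it in about 1 of 20 groups of values. The cause was not tested.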

How the results depend on the processing

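Of 8658 H3K4me3 genes, 1553 had ISL1. The count was 785 with the ISL1 peak wholly inside, 486 within 250 bp of the H3K4me3 summit, 4474, 350 and 61 with at least 1, at least 3 and all 4 libraries, 620 with the 20000 best peaks per list, and 569 to 1319 with an ISL1 library left out. With H3K4me3 replicate 1 in place of replicate 2, which changes the genes, it was 1328 of 4651. The width ratio of 2.09 was 1.82 with an overlap of 1 bp, 2.52 wholly inside, 1.22 within 250 bp, 1.79, 2.32 and 2.66 by number of libraries, 1.98 with 500 bp at gene ends, 2.17 with 2 kb, 1.98 at gene starts only, and 2.03 to 2.97 with a library left out, the highest with H3K4me3 replicate 1. The summit distance of 339 bp was 313 bp with overlap, 415 bp wholly inside, 114 bp within 250 bp, 268, 422 and 594 bp by number of libraries, 354 bp with the 20000 best peaks, and 341 to 1227 bp with a library left out, the highest again with H3K4me3 replicate 1. These counts, ratios and distances follow in part from the alternatives themselves, which admit more or fewer peaks or limit the distance. The H3K27me3 difference of 6.75 points was -2.11 without H3K27me3 replicate 1, with a range of -2.11 to 20.1 (H3K4me3 replicate 1) when a library was left out; the cause was not tested. The H3K27ac difference stayed positive under 19 alternatives, at 10.3 to 27.1 points, and that between genes with and without H3K4me3 under 12, at 5.11 (H3K4me3 replicate 1) to 18.95. The latter has no value for the 250 bp window or for the number of libraries, which do not enter it. Neuron lists exceeded general lists by 17.6 points, and by 3.64 to 27.1 under 15 alternatives on H3K4me3 replicate 2. With H3K4me3 replicate 1 the excess was 44.2 points (56.7% against 12.5%). That value compares other genes, since replicate 1 lay at 1 of 34 ribosomal protein genes, so it is not the same contrast. No paired analysis was possible because no model is fitted across libraries in which the replicate number, which only names them, could be a block; the sign-flip tests compare values within each library. Unknown depth, a single usable H3K4me3 library and at most 4 libraries per target limit the precision.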

Other observations

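Several of the 61 genes with ISL1 in all 4 libraries lie in pairs at 1 H3K4me3 peak, so that 61 genes come from 50 peaks. Beyond those described, and picked after their values were seen, they include Nsd1 and Nsd3, which methylate H3K36, the tubulin gene Tubb2b, the adhesion molecule Alcam, the nonmuscle myosin Myh10, the RhoGAP genes Srgap2 and Arhgap35, and the stress response factor Nfe2l2.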
